A study of Mus musculus with 4 samples.

Results

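Homeostatic microglia markers are represented here by 7 genes, Tmem119, Olfml3, Slc2a5, Sparc, Selplg, Cst3 and Aif1, out of 21755 protein-coding genes on the mouse autosomes and chromosome X. Their chromatin was described through every deposited ATAC-seq peak that overlapped a gene body or the 10 kb on either side of it, with genes placed by GRCm38 and GENCODE M21. ATAC-seq marks open DNA by the cuts of the Tn5 transposase. Both genotypes had 2 libraries each of flow-sorted microglia from C57BL/6 mice aged 3 months, untreated, one genotype being WT and the other IRF8KO. The labels name no floxed allele, Cre driver or deleted exon for IRF8KO. They describe isolation from a brain of each genotype and do not say whether replicates 1 and 2 came from separate animals. The p-values below therefore measure only the spread between these libraries, which may be technical.

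The 4 peak lists held 258 peaks in these windows out of 676057 in all. WT replicate 1 contributed 79 of them, WT replicate 2 64, IRF8KO replicate 1 58 and IRF8KO replicate 2 57. Peaks of −log10 q of 2 or more, called strict, were merged over the libraries into 155546 regions, of which 76 lay in the windows. The level of a region in a library was the pileup (cut sites stacked at the summit) scaled to 1000000 tags by the number of tags in the file header, called the scaled pileup below. Because it is read at 1 position, it does not grow with the length of a gene or a peak.

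Microglia are the resident macrophages of the brain parenchyma, and the homeostatic genes are those that mark them in the healthy adult brain and that often decline when the cells become activated. IRF8 is a transcription factor of myeloid cells that binds DNA largely together with a partner. With the ETS factor PU.1 it occupies composite ETS-IRF elements, and with IRF1 or related factors it occupies interferon-stimulated response elements (ISRE). Open promoters and distal elements around a gene mark where such factors can reach the DNA, and they are not a measure of its RNA.

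Sequencing was deeper in IRF8KO (78793572 and 66224648 tags) than in WT (46948938 and 48896408), and tags measured 49 bp and 50 bp respectively, so depth and tag size cannot be told apart from genotype. Over the 58550 regions with a deposited peak in all 4 libraries, the median log2 difference of IRF8KO against WT was -0.31, and member values are read against that shift. The microglial markers Cx3cr1, P2ry12, Csf1r and C1qa had a promoter peak for 4 of 4 genes in every library, with summed levels of 13.7 and 8.999 in WT and 5.88 and 8.06 in IRF8KO. Neutrophil or monocyte promoters were near absent, with 4 of 5 genes without any peak and summed levels of 0.123 to 0.257 in the 4 libraries. T or B cell promoters were similarly low, with 3 of 5 genes without a peak and sums of 0.151 to 0.348. At the Irf8 promoter the levels were 2.07 and 1.49 in WT and 0.863 and 1.36 in IRF8KO (log2 difference -0.70, SE 0.45, limma with Benjamini-Hochberg adjusted p = 0.415). Openness of that promoter does not check the deletion. In sorted bulk cells, fewer cells with an open site and less opening per cell cannot be told apart.

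The sequences below are those of selected regions that differed between genotypes, plus a strong region where IRF8KO was not below WT. Each is the GRCm38 plus strand, from 100 bases before to 100 after the reference summit, and capitals mark matches to the motifs described further on. The first 4 come from regions called lower in IRF8KO or, for the second Slc2a5 region, seen in IRF8KO alone.
Selplg, 6632 bp upstream (chr5:113837033-113837233): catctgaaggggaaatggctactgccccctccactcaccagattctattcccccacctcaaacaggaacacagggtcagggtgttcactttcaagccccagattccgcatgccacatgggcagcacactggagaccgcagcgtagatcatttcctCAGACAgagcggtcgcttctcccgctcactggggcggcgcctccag
Selplg, 4651 bp upstream (chr5:113835052-113835252): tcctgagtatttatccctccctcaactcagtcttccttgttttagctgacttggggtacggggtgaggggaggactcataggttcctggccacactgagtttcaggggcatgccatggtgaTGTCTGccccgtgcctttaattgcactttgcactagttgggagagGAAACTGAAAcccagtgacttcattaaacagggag
Slc2a5 intron, 17564 bp downstream of the start (chr4:150136747-150136947): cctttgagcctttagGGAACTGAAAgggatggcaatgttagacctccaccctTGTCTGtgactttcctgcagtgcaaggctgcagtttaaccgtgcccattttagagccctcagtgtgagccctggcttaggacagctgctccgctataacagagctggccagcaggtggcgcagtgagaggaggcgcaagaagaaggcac
Slc2a5 intron, 19006 bp downstream of the start (chr4:150138189-150138389): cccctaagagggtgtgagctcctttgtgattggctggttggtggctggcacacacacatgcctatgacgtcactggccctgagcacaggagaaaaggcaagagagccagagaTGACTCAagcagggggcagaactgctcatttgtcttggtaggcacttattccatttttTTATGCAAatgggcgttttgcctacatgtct
The next 3 were open in WT replicates 1 and 2, whereas IRF8KO had no peak (Olfml3 and Sparc) or a single one below the strict threshold (Aif1).
Aif1 intron, 215 bp upstream of an alternative start (chr17:35173393-35173593): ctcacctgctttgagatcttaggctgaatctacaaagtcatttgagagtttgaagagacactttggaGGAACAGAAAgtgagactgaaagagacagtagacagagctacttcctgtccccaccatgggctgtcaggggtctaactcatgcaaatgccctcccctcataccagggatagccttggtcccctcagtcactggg
Olfml3, beyond the 3-prime end (chr3:103715070-103715270): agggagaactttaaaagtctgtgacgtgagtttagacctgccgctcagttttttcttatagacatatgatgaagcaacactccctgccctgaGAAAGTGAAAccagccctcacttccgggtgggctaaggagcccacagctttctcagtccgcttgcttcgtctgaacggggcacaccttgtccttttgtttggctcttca
Sparc intron (chr11:55398321-55398521): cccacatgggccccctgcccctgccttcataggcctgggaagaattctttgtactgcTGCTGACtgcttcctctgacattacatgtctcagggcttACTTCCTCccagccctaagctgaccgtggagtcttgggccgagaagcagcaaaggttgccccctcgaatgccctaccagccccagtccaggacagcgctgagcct
The last is a strong distal region beyond the end of Tmem119, shown as the comparison in which the IRF8KO libraries were not below WT.
Tmem119, beyond the 3-prime end (chr5:113787055-113787255): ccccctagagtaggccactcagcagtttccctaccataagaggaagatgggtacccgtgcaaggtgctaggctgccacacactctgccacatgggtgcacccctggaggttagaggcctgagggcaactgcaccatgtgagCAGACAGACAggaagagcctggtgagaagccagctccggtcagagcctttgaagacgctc
Distances in bp are to the nearest annotated start of a protein-coding transcript of the gene. No sequence is shown for the Sparc promoter, whose window lies in annotated UTR. None is shown either for another Sparc intronic region open in WT alone (chr11:55411758-55411941). Its window held no match to the motifs.

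The comparison of IRF8KO with WT asks whether chromatin at these genes opens differently without IRF8. Of the 76 regions, 37 had a deposited peak in all 4 libraries and could be fitted, and 32 of those were strict in all 4. By limma with Benjamini-Hochberg adjustment over all regions at 0.05, 4 of the 37 differed (10.8%, against 9.63% of all regions in either direction). IRF8KO was lower at 4 of the 37 regions (10.8%, against 6.82% of all 58550 regions) and higher at 0 (against 2.81%). At an unadjusted p below 0.05, 7 were lower (18.9%, against 14.6% of all regions) and 2 higher (5.41%, against 5.63%). The 4 lay at Selplg, Slc2a5 and Sparc, and these shares of few regions are close to the background. The median log2 difference of the 37 was -0.56, or 0.25 below that of all regions, and 27 of 37 lay below the median of all regions. Both IRF8KO libraries were below both WT libraries at 20 of 37 regions (54.1%, against 37.1% of all regions), and above both at 3 (8.11%, against 11.9%). The offset from all regions was -0.24, -0.24, -0.21 and -0.26 in the 4 pairs of an IRF8KO with a WT library.

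**Figure D1:**
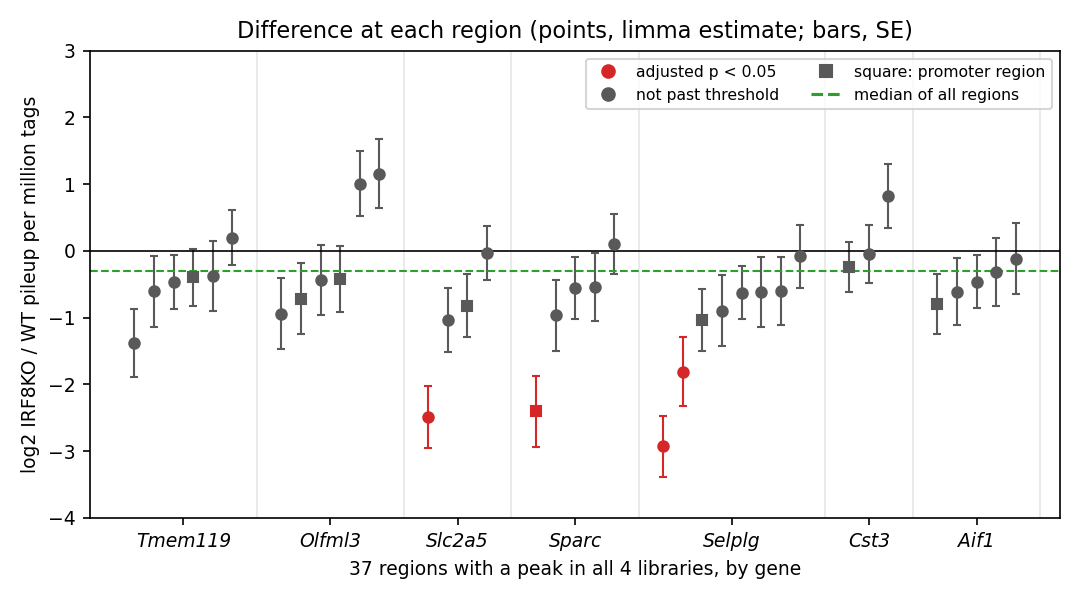
Log2 difference of IRF8KO against WT (vertical axis, points with SE bars) for the 37 member regions with a peak in all 4 libraries, grouped by gene along the horizontal axis and sorted within it. Squares are promoter regions, red marks a limma adjusted p below 0.05, and the dashed line is the median of all 58550 regions at -0.31. The 4 regions called lower, at Selplg, Slc2a5 and Sparc, stand lowest, between -1.81 and -2.93.

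Selplg encodes PSGL-1, the glycoprotein ligand through which leukocytes bind selectins. It held 15 regions, of which 8 were in all 4 libraries, and 2 of the 4 lower calls lay upstream of it. The region 6632 bp upstream (chr5:113836928-113837271, between protein-coding genes) stood at a scaled pileup of 3.98 and 3.09 in WT and at 0.381 and 0.559 in IRF8KO. The raw pileups behind these values were 187, 151, 30 and 37 cut sites. Both IRF8KO libraries were far below both WT libraries, with a log2 difference of -2.93 (SE 0.46, limma adjusted p = 4.4e-08), a 7.60-fold lower level. On the deposited fold enrichment over local background it was 3.89-fold lower (log2 difference -1.96).

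Nearer to the gene, the region 4651 bp upstream (chr5:113834989-113835342) stood at 1.49 and 0.941 in WT and at 0.343 and 0.332 in IRF8KO. The IRF8KO libraries were again below WT without overlap (log2 difference -1.81, SE 0.52, limma adjusted p = 0.00841, 3.51-fold). The summits of this pair of regions were 1981 bp apart. This call is the least firm of the 4, since on the fold enrichment over local background the log2 difference was -0.36 (limma adjusted p = 0.655). The Selplg promoter (chr5:113830070-113830611, in an annotated UTR) had 1.75 and 1.51 in WT against 0.660 and 0.951 in IRF8KO. Its libraries did not overlap, but the difference of -1.04 did not pass (SE 0.47, limma adjusted p = 0.165). Further out, 11540 bp upstream, the strongest region of the locus had 4.75 and 3.68 in WT and 2.26 and 3.26 in IRF8KO (log2 difference -0.62, limma adjusted p = 0.411). The fall at the upstream pair was thus larger than at the promoter or the region 11540 bp upstream in these values, although the differences between regions were not tested.

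Slc2a5 encodes GLUT5, a fructose transporter that in the brain is typical of microglia. Its intronic region 17564 bp into the gene (chr4:150136621-150137165) had 3.64 and 2.09 in WT and 0.419 and 0.574 in IRF8KO, from raw pileups of 171, 102, 33 and 38. The genotypes were well separated, with a log2 difference of -2.49 (SE 0.47, limma adjusted p = 8.51e-06, 5.62-fold lower). On fold enrichment over local background it was 3.06-fold lower (log2 difference -1.61). At 1442 bp further into the gene lay the one IRF8KO-specific region of the 76 (chr4:150138118-150138507, intron). It had 0.317 and 0.438 in the IRF8KO libraries and no deposited peak in either WT library. For both of these intronic regions the nearest annotated start was that of the neighbouring gene Slc2a7. It lay 12125 bp from the region that fell and 10683 bp from the IRF8KO-specific one. IRF8KO-specific means a strict peak in both IRF8KO libraries and no deposited peak of any strength in WT, which held for 1 of 76 member regions against 3.86% of all regions.

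The start of Slc2a5 and the region before it gave smaller differences. The region assigned to the promoter (chr4:150120239-150120809), whose summit lay 1227 bp inside the first part of the gene, had 1.66 and 1.21 in WT and 0.711 and 0.906 in IRF8KO. WT and IRF8KO libraries did not overlap, and the difference of -0.82 did not pass (SE 0.47, limma adjusted p = 0.335). The region 1783 bp upstream of the start (chr4:150117305-150117636) had the highest mean of the locus, with 3.45 and 2.99 in WT and 2.69 and 3.65 in IRF8KO. Here the genotypes overlapped, and the log2 difference was -0.03 (SE 0.41, limma adjusted p = 0.975). The window therefore held a region that fell, one seen in IRF8KO alone and one whose libraries overlapped.

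**Figure D2:**
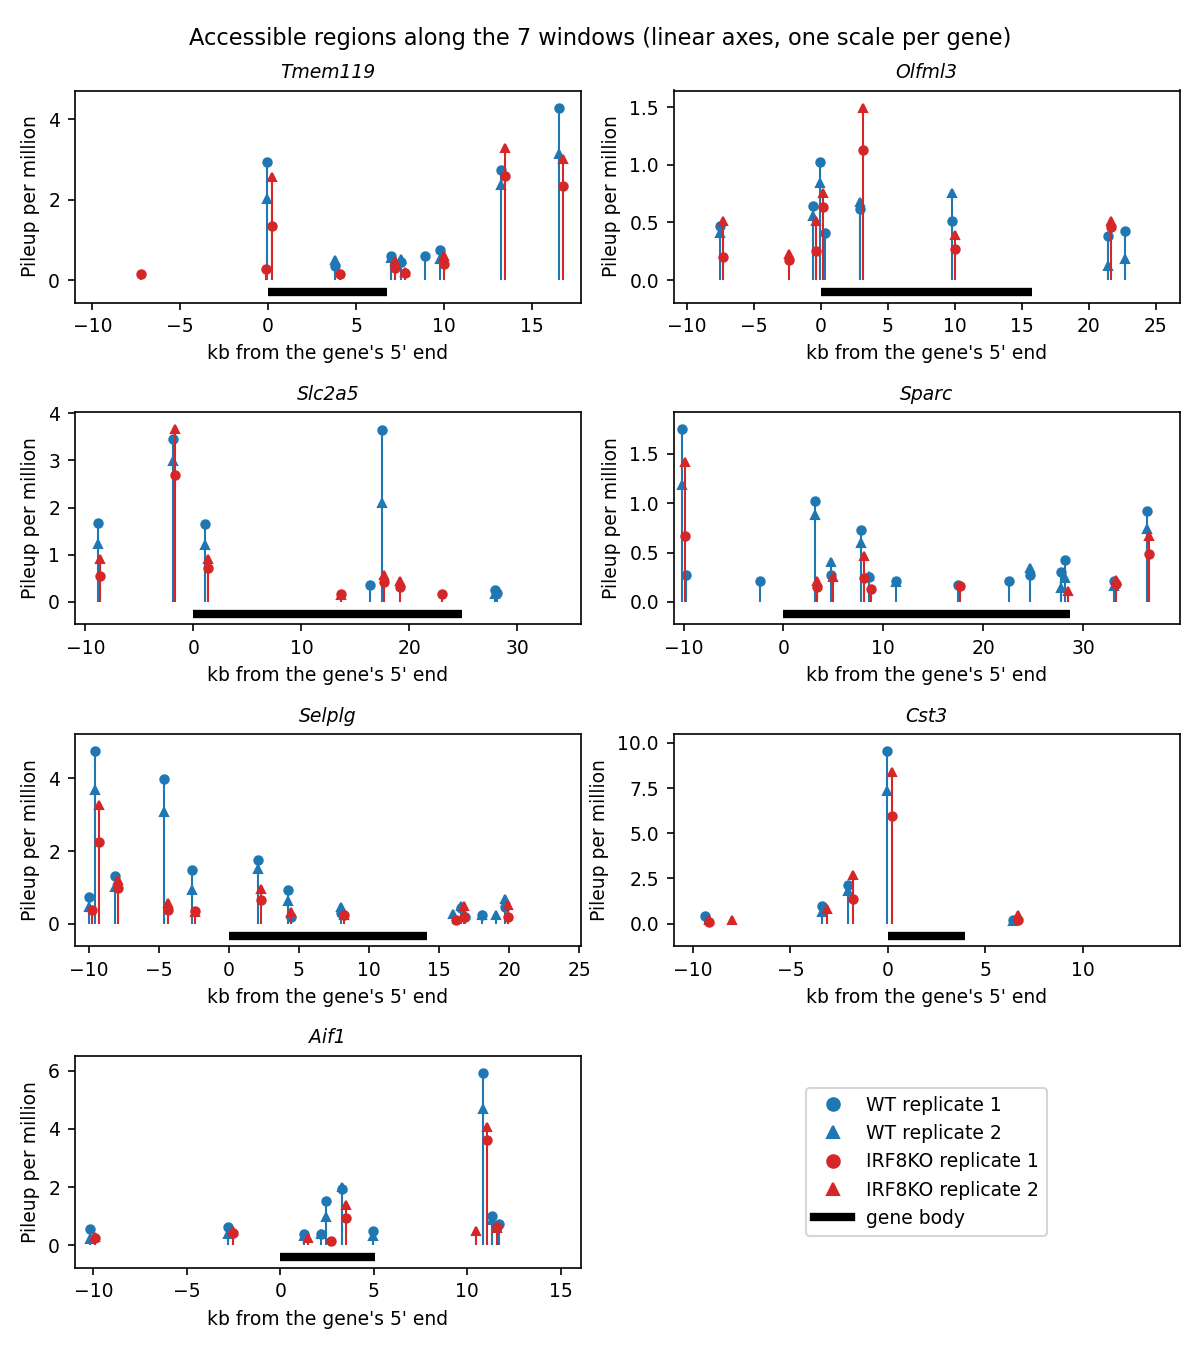
Scaled pileup (vertical axis) of every member region against the distance of its summit from the annotated 5-prime end of the gene in kb (horizontal axis), 1 panel per gene with its own scale, WT in blue and IRF8KO in red, 1 point per library. The black bar is the gene body, and the red points are moved slightly to the right for visibility. At Selplg, whose annotated 5-prime end lies upstream of its coding start sites, the blue points of the region described as 6632 bp upstream stand at 3.98 and 3.09 with both red points below 0.6, while at Cst3 the colours overlap at the promoter.

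Sparc encodes a secreted, collagen-binding matricellular protein that astrocytes and endothelial cells also make. Its promoter (chr11:55419606-55420065, summit 15 bp upstream of an annotated start and in an annotated UTR) had 1.02 and 0.879 in WT and 0.152 and 0.211 in IRF8KO. Values in IRF8KO rest on pileups of 12 and 14 cut sites, against 48 and 43 in WT. WT averaged 0.951 ± 0.101 and IRF8KO 0.182 ± 0.0418 (SD, n = 2 each), and the groups were well apart. The log2 difference was -2.40 (SE 0.53, limma adjusted p = 0.000256, 5.28-fold lower, or 3.09-fold on fold enrichment over local background). The Sparc promoter was the only one of the 7 called lower. That of Selplg passed too with libraries scaled to an equal median (limma adjusted p = 0.0124). On fold enrichment over local background, however, the Selplg promoter stood at a log2 difference of -0.11 (limma adjusted p = 0.875). Promoters called lower were 2.33% of the 12590 fitted over the genome.

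Promoter levels of markers of other cell types were read in the same libraries. Over 5 endothelial promoters the summed level was 1.30 and 1.104 in WT and 0.533 and 0.649 in IRF8KO, with Cdh5 and Tie1 without a peak in any library and Cldn5 with one in WT alone. The fitted endothelial promoters, Pecam1 and Flt1, did not pass (limma adjusted p = 0.414 and 0.508). Over the oligodendrocyte promoters of Mbp, Mog, Mobp and Cnp it was 3.54 and 2.60 in WT and 0.723 and 1.495 in IRF8KO, with Cnp lower (log2 difference -2.06, limma adjusted p = 0.00223). Over 5 astrocyte promoters it was 1.77 and 1.31 in WT and 1.19 and 1.92 in IRF8KO, with Aqp4 without a peak, so that the genotypes overlapped. Within that list Aldh1l1 was higher (log2 difference 1.99, limma adjusted p = 0.0035) and Slc1a3 stood at -1.32 without passing (limma adjusted p = 0.10). Gfap had no peak in IRF8KO replicate 2, and Slc1a2 had one in WT replicate 1 alone. Neuronal promoters summed to 0.895 and 1.06 against 0.546 and 0.453, with Rbfox3 without a peak. The part of these cell types in the Sparc result was not tested.

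Sparc also held 2 of the 3 WT-specific regions, the converse class, which made up 3 of 76 member regions (3.95%) against 5.58% of all regions. Both were intronic and weak. One (chr11:55398228-55398487) had 0.277 and 0.348 in WT and the other (chr11:55411758-55411941) 0.213 and 0.205, with no deposited peak in IRF8KO. Of the 15 Sparc regions, 6 had peaks in WT libraries alone and 0 in IRF8KO libraries alone, where all regions have 23.8% and 22.2%. In 3 of the 6 the peak came from WT replicate 1 alone. The outer regions of the locus had smaller differences, with log2 differences of -0.54 (33206 bp downstream of the start, limma adjusted p = 0.62) and -0.56 (9990 bp upstream, limma adjusted p = 0.558).

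Aif1 encodes IBA1, the calcium- and actin-binding protein used as a stain for microglia and macrophages. Its promoter (chr17:35172357-35172785) had 1.94 and 2.004 in WT and 0.939 and 1.37 in IRF8KO. Again WT and IRF8KO libraries did not overlap, but the difference of -0.79 did not pass (SE 0.45, limma adjusted p = 0.319). A neighbouring intronic region, 215 bp upstream of an alternative start (chr17:35173345-35173599), had strict peaks of 1.53 and 0.961 in WT. In IRF8KO replicate 1 the overlapping peak was 0.165, with −log10 q of 1.30, and its summit lay outside the bounds of the region, up to 346 bp from those of WT. IRF8KO replicate 2 had no deposited peak. The region was not fitted, since it lacked a value in 1 library. It passed as lower in the alternatives that could fit it, without IRF8KO replicate 2 (log2 difference -2.88, limma adjusted p = 8.56e-09) and with the missing library set to its lowest deposited pileup (-3.20, limma adjusted p = 0.000825). Both rest on that displaced summit, and the filled value is not a measurement. Another small region, 474 bp upstream of that start, had 0.383 and 0.409 in WT and none in IRF8KO, the first of them below the strict threshold. The strongest region of this window, with 5.92 and 4.68 in WT and 3.62 and 4.06 in IRF8KO, lay at the promoter of the neighbouring gene Prrc2a (log2 difference -0.46, limma adjusted p = 0.57). A smaller region beside it (chr17:35164531-35164745, intron of Prrc2a) had 1.02 and 0.859 in WT and 0.622 and 0.604 in IRF8KO (log2 difference -0.61, limma adjusted p = 0.551).

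Olfml3 encodes a secreted olfactomedin-like glycoprotein. Its promoter (chr3:103737724-103738085) had 1.02 and 0.839 in WT and 0.635 and 0.755 in IRF8KO, without overlap (log2 difference -0.42, SE 0.50, limma adjusted p = 0.703). A region 503 bp upstream of the start had 0.639 and 0.552 in WT and 0.254 and 0.513 in IRF8KO (log2 difference -0.72, limma adjusted p = 0.494), and one 430 bp inside the gene had a peak in WT replicate 1 alone (0.405). The WT-specific region beyond the 3-prime end (chr3:103715098-103715340) had 0.426 and 0.184 in WT. The opposite order was seen at a region in an annotated UTR (chr3:103734739-103735538), with 0.618 and 0.675 in WT and 1.13 and 1.49 in IRF8KO. Both IRF8KO libraries were above both WT libraries there, 1 of the 3 member regions with that order, but the difference of 1.01 did not pass (SE 0.49, limma adjusted p = 0.207). An intronic region (chr3:103728013-103728408) had 0.511 and 0.757 in WT and 0.267 and 0.393 in IRF8KO (log2 difference -0.94, limma adjusted p = 0.318).

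Tmem119 encodes a single-pass membrane protein whose antibody separates resident microglia from blood-derived macrophages. Its promoter (chr5:113800160-113800678) had 2.94 and 2.004 in WT and 1.33 and 2.57 in IRF8KO. Both genotypes overlapped, and IRF8KO replicate 2 lay between both WT libraries (log2 difference -0.39, SE 0.43, limma adjusted p = 0.673). A weak region 259 bp upstream of the start had a peak in IRF8KO replicate 1 alone (0.267). Beyond the 3-prime end, the region 13361 bp from the start (chr5:113786988-113787391) had 2.75 and 2.35 in WT and 2.59 and 3.29 in IRF8KO (log2 difference 0.20, limma adjusted p = 0.836). The next, 16677 bp from the start, had 4.28 and 3.13 in WT and 2.34 and 3.00 in IRF8KO (log2 difference -0.47, limma adjusted p = 0.579). None of the 6 fitted Tmem119 regions passed in either direction. The one nearest to passing, chosen after its values were seen, had 0.447 and 0.532 in WT and 0.178 and 0.196 in IRF8KO (chr5:113792694-113792916, log2 difference -1.38, limma adjusted p = 0.0618). It passed as lower with equal medians (limma adjusted p = 0.0178), without trend (0.0191) and with missing libraries filled (0.0496). It did not pass on fold enrichment over local background, with the replicate block or with regions merged from all deposited peaks.

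Cst3 encodes cystatin C, a secreted inhibitor of cysteine proteases that is among the abundant transcripts of microglia and is also made by astrocytes. Its promoter (chr2:148875169-148875896) was the most open of the 7, with 9.54 and 7.32 in WT and 5.94 and 8.40 in IRF8KO. Over the 4 libraries it stood at the 97.9th percentile of the 12590 fitted promoters. The genotypes overlapped, with a log2 difference of -0.24 (SE 0.37, limma adjusted p = 0.776). The region 2020 bp upstream overlapped too, with 2.15 and 1.82 in WT and 1.37 and 2.69 in IRF8KO (log2 difference -0.04, limma adjusted p = 0.969). At 3363 bp upstream, peaks of 0.98, 0.654 and 0.815 were deposited in WT 1, WT 2 and IRF8KO 2, and none in IRF8KO 1.

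**Figure D3:**
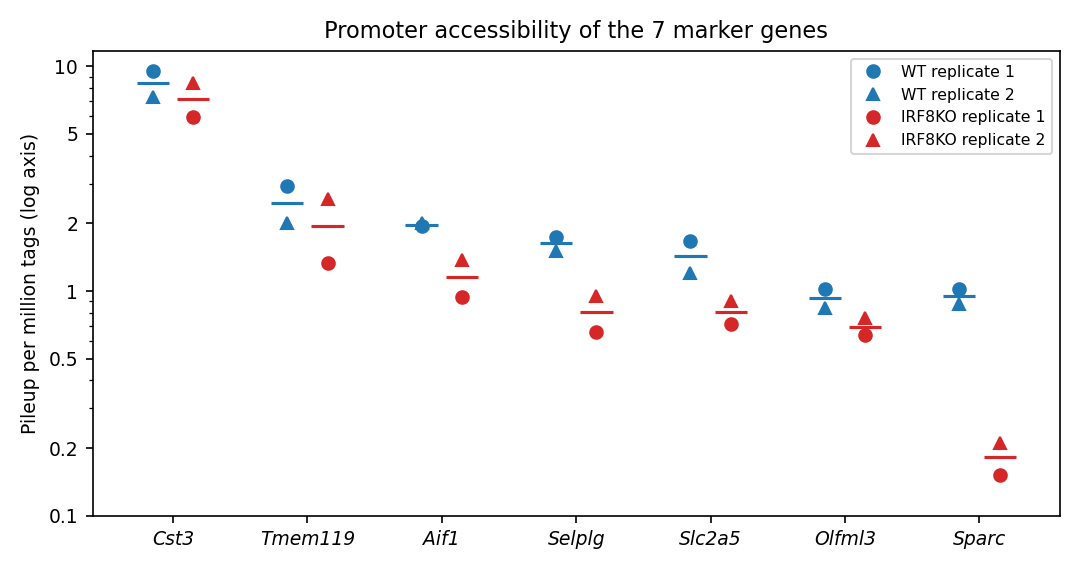
Scaled pileup (vertical axis, log scale) at the promoter region of each of the 7 genes, 1 point per library, WT in blue and IRF8KO in red, with a line at the mean of each genotype. Cst3 lies highest, between 5.94 and 9.54, and Sparc is the gene with the widest gap between genotypes, at 1.02 and 0.879 against 0.152 and 0.211.

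In order of their mean over the libraries, the promoters ran Cst3, Tmem119, Aif1, Selplg, Slc2a5, Olfml3 and Sparc. Within WT alone Sparc stood above Olfml3, and within IRF8KO alone Slc2a5 stood above Selplg. The lowest Cst3 library (5.94) was above the highest library of any other member (2.94). All other neighbours in this order overlapped between their libraries. At 5 of the 7 promoters both IRF8KO libraries were below both WT libraries, against 40.5% of all 12590 promoters. The exact two-sided permutation test over 2 against 2 libraries gave p = 0.333 for those 5, the smallest it can give, and 0.667 for Tmem119 and Cst3. The median log2 difference over all 12590 promoters was -0.34.

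The promoters most like each member, by Euclidean distance of their log2 levels over the 4 libraries, were taken outside the windows. For Sparc they were Kcnip3 (distance 0.252; 1.19 and 0.920 in WT, 0.152 and 0.227 in IRF8KO) and Pmp22 (0.419). No other member had its nearest promoter so far away. Rars (0.117) was nearest to Tmem119, Tjap1 (0.141) to Olfml3, Wasf2 (0.153) to Slc2a5, Cldn10 (0.134) to Selplg and Ugcg (0.0872) to Aif1. Cdca3 and Usp5, which share 1 region, were nearest to Cst3 (0.0989).

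The 39 regions without a peak in all libraries were weaker than the fitted ones, with a median of 0.266 against 0.675. Of these, 10 had peaks in 3 libraries, 15 in 2 and 14 in 1. Peaks in WT libraries alone were found at 19 of 76 regions (25.0%, against 23.8% of all regions) and in IRF8KO libraries alone at 8 (10.5%, against 22.2%). WT replicate 1 by itself supplied 8 of the 19. Of the 8 regions with peaks in IRF8KO libraries alone, 3 lay at Slc2a5 and 2 at Tmem119, with 0 at Sparc and 0 at Selplg. Including that Tmem119 region, the 15 fitted regions outside the rule for described regions ran from -1.38 to 1.16 in log2 difference, with a median of -0.44.

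**Figure D4:**
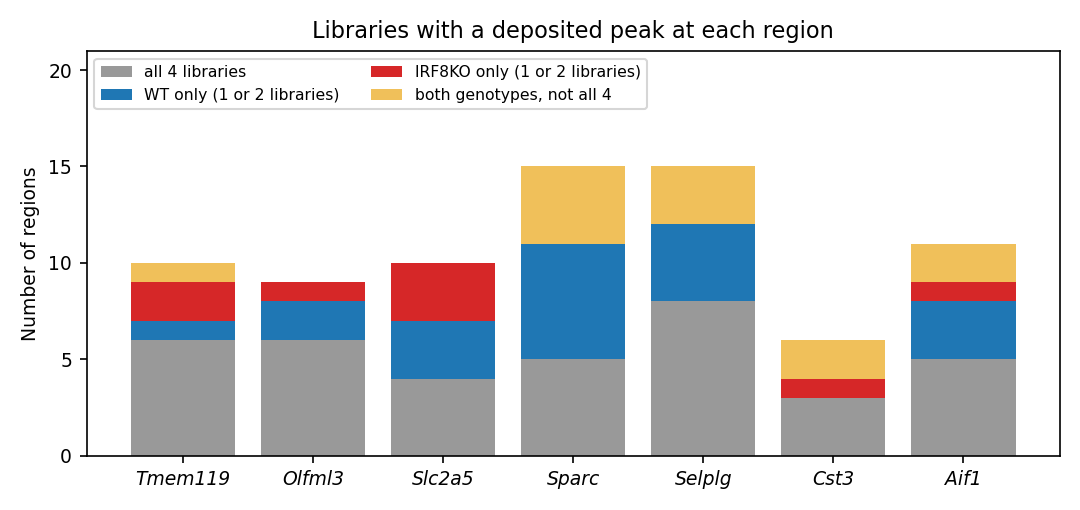
Number of merged strict regions per gene (vertical axis) split by which libraries held a deposited peak: all 4, WT libraries alone, IRF8KO libraries alone, or another mix. Sparc and Selplg have 15 regions each and none with peaks in IRF8KO libraries alone, while Slc2a5 has 3 of each one-genotype kind among 10.

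Motifs were searched on both strands in the 201 bp around the reference summit of each of the 155546 regions. The composite ETS-IRF motif, GGAA and GAAA with 2 bases between them, was in 3 of 76 member regions against 4.31% of all regions. The 3 were the Slc2a5 intronic region that fell (GGAACTGAAA), the Aif1 intronic region seen mainly in WT (GGAACAGAAA) and the Olfml3 intronic region (GGAAGTGAAA). In the Slc2a5 region the match lay 80 bp from the summit, and in the Aif1 region 28 bp. The ISRE motif, GAAA repeated with 2 bases between, cannot start at the same base as a composite match, and it was in 4 of 76 regions against 3.12% of all. They included the Selplg region 4651 bp upstream (GAAACTGAAA, 71 bp from the summit) and the WT-specific Olfml3 region (GAAAGTGAAA, 3 bp from the summit). Another was the Sparc region 9990 bp upstream (GAAATGGAAA, 63 bp from the summit), whose libraries overlapped between genotypes (log2 difference -0.56, limma adjusted p = 0.558). The last was a weak Selplg region with 0.234 and 0.245 in WT and no peak in IRF8KO, which was not fitted. The Selplg region 6632 bp upstream, which had the largest difference, held neither motif in this window.

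For PU.1, GAGGAAGT, which can overlap a composite match, was found in 4 of 76 regions against 7.74% of all. One match lay at the summit of a WT-specific Sparc region, and the other such region held none of the motifs. The remaining PU.1 matches lay in regions of Olfml3, Sparc and Selplg that were not called. The AP-1 motif TGANTCA (4 of 76, against 8.12%) and the CEBP motif TTGCNNAA (8 of 76, against 9.54%) both occurred in the IRF8KO-specific Slc2a5 region. AP-1 also matched the Olfml3 intronic region, a Sparc intronic region and the weak Tmem119 region 259 bp upstream. CEBP also matched other regions, among them the Olfml3 UTR region and the one at the Prrc2a promoter. The SMAD motif CAGACA was in 18 of 76 against 19.2%, the MAF motif TGCTGAC in 5 against 5.01%, the RUNX motif TGTGGTT in 3 against 5.57% and the E-box CACGTG in 5 against 4.09%. The MEF2 motif, CTA and TAG with 4 bases between, was in 3 against 3.35% and the CTCF motif in 2 against 1.51%. The shares in these 76 regions rest on few matches and were not tested. The GC content of the windows had a median of 53.2% for members and 49.3% for all regions.

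A wider list of 39 homeostatic and microglial genes, including P2ry12, Cx3cr1, Csf1r, Sall1 and the C1q genes, was given the same windows. Of its 376 fitted regions, 28 were lower in IRF8KO (7.45%, against 6.82% of all regions) and 10 higher (2.66%, against 2.81%), with a median log2 difference of -0.32. Of its 37 fitted promoters 4 were lower and 1 higher, against 2.33% and 0.604% of the 12590 fitted over the genome. The lower ones included P2ry12 and P2ry13 (purinergic receptors) and Crybb1, with log2 differences of -1.54, -1.28 and -2.12 (limma adjusted p = 0.0079, 0.0294 and 0.000188). Rnase4 was the one promoter that was higher, at 2.24 (limma adjusted p = 0.000466). The promoter of Sall1, a transcription factor of microglial identity, had 2.17 and 2.05 in WT, no peak in IRF8KO replicate 1 and 0.136 in IRF8KO replicate 2. WT-specific promoter regions were found at C1qb, Adgrg1, Serinc3, Upk1b and Mef2c, and IRF8KO-specific ones at Entpd1 and Mef2c. Border macrophage markers had summed promoter levels of 0.916 and 0.920 in WT and 2.005 and 3.20 in IRF8KO over 5 genes, Lyve1 and Cd163 having no peak. Pf4 was the one marker of that list that was higher (log2 difference 2.03, limma adjusted p = 0.00148). Neither Mrc1 (1.36, limma adjusted p = 0.0842) nor F13a1 (-0.32, limma adjusted p = 0.745) passed. The part of these cells in the member results was not tested.

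With either WT library left out, few regions of the genome passed, and all or most of the 4 lower member calls were lost too. Without WT replicate 1 the log2 differences were -2.74, -2.09, -2.29 and -1.48 for Selplg at 6632 bp, Slc2a5, Sparc and Selplg at 4651 bp. Without WT replicate 2 they were -3.11, -2.89, -2.51 and -2.14 in the same order. These fits rest on 1 WT library, so only the sizes of the differences are given. In each case the lone WT library was assumed to vary like the IRF8KO libraries. With libraries scaled to an equal median over regions, 7 member regions were lower (18.9%, against 12.5% of all regions) and 4 higher (10.8%, against 13.3%). The Olfml3 UTR region was among the higher ones (log2 difference 1.31, limma adjusted p = 2.58e-05). The Tmem119 region 13361 bp from the start was another, at 0.50 (limma adjusted p = 0.0293). Over all regions that scaling moved the share of calls that were lower from 70.9% to 48.3%.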

How the data were processed

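ATAC-seq libraries of sorted microglia, 2 WT and 2 IRF8KO, were grouped by the labels. The authors deposited a separate peak list for every library. Per the submitters' processing notes, bcl2fastq, Bowtie2, MACS2 2.1.1.20160309 and deepTools were used with build mm10, with no role stated there. Per the file headers, peaks were called by MACS2 in each library separately at a p cutoff of 0.01, with cut sites moved by -37 bp and extended to 73 bp. The deposited pileup is a signal, the depth of cut sites at a summit in unscaled whole numbers. Fold enrichment, as deposited, is a ratio to local background, and the deposited p and q are −log10 values. The headers state that q was not calculated, yet the lists hold q values, which were used.

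Pileup was scaled to 1000000 tags by the tag number in each header, which makes 1 cut site worth 0.0127 to 0.0213. The lowest deposited pileup was 6 to 8, so weaker sites are not seen and a region without a peak is not one without cut sites. Strict peaks (−log10 q of 2 or more) on the autosomes and X were merged, an overlap of 1 bp sufficing. Regions with a peak in all 4 libraries were fitted in log2 with limma 3.58.1 (trend) in R 4.3.3, with no pseudocount, and p-values were adjusted over all 58550 by the Benjamini-Hochberg method at 0.05. A promoter was the strongest region within 1 kb of an annotated start. Sequences were read from GRCm38 with pysam 0.24.0. All peaks used lay inside its chromosome lengths. The fit was tested on simulated data.

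Described by rule were each member's promoter, genotype-specific and called regions, and its 2 strongest distal regions. The members and lists were chosen with earlier results of these data known. Alternatives changed scaling, measure, merging, presence rules, trend and libraries left out. No difference within a batch could be given, since the labels name none. Some genes of the marker lists are not reported here.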

Additional observations from a re-analysis of the deposited data

How the results depend on the processing

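The 4 lower calls among 37 member regions kept their direction under each of the 12 alternative fits. Scaling to an equal median gave 7 lower and 4 higher member regions, and setting missing libraries to their lowest pileup gave 18 lower (29.0%, against 15.3% of all regions in that fit) and 1 higher (1.61%, against 5.49%) of 62. Leaving out 1 library gave 0 to 16 lower and 0 to 1 higher. At an unadjusted p below 0.05, 3 were lower without WT replicate 1 (8.11%, against 4.02% of all regions). The 16 of 41 came without IRF8KO replicate 2 (39.0%, against 21.5% of all regions). Over all regions, lower calls numbered 7298 with equal medians, 2058 on fold enrichment, 872 with the replicate block, 16359 with missing libraries filled, and 141 to 12993 with a library left out. Higher calls numbered 7816, 330 (replicate block), 5852 (filled) and 138 to 3797. At the wider homeostatic list, lower calls numbered 58 (equal medians, 15.4% against 12.5% of all regions), 10 (fold enrichment, 2.66% against 3.51%), 2 (replicate block, 0.532% against 1.49%), 95 (filled, 16.5% against 15.3%) and 0 to 105 with a library left out (up to 27.2% against 21.5%). The fits without WT replicate 1 or 2 kept 1 WT library, and few regions of the genome passed in them. They are therefore not read as a result about that list. Higher calls there numbered 58 (equal medians, 15.4% against 13.3%), 2 (replicate block, 0.532% against 0.564%), 6 (strict peak in all 4 libraries, 1.90% against 2.38%), 37 (filled, 6.43% against 5.49%), 16 (no trend, 4.26% against 3.75%) and 1 to 24 (up to 5.83% against 5.71%). The member median minus that of all regions was -0.13 on fold enrichment, -0.30 with a strict peak in all libraries, -0.47 filled, and -0.29 to -0.22 with a library left out. Promoters lower numbered 2 with equal medians and 0 to 3 with a library left out. WT-specific regions numbered 0 at −log10 q of 5, 7 where absent meant no strict peak, and 5 to 14 with a library left out. IRF8KO-specific regions numbered 2 where absent meant no strict peak and 1 to 5 with a library left out. For these promoter and genotype-specific counts no share over all promoters or regions is given. They are therefore not read as results about the members. Among the 22 fitted regions described by rule, the log2 difference turned from negative to positive in some alternative at 5, none of them called. One of these, the Aif1 promoter, stood at -1.07 without IRF8KO replicate 2. Changes of sign at the other fitted regions are not given here. At the Slc2a5 region 1783 bp upstream it was 0.27 with equal medians, 0.10 on fold enrichment and -0.25 to 0.19 with a library left out. At the Cst3 region 2020 bp upstream it was 0.26, 0.14 and -0.53 to 0.44. At the Cst3 promoter it was 0.0611 with equal medians, -0.49 to 0.0064 with a library left out. At the Tmem119 promoter it was -0.87 to 0.0808 with a library left out, and at the Aif1 promoter 0.18 on fold enrichment. The cause of these changes was not tested. Region by region, same-numbered libraries did not deviate together (correlation 0.00438 over 58550 regions). A shift shared by whole libraries would not show in this value, and the labels do not say whether the numbers pair libraries. With the replicate block 3 member regions stayed lower (limma adjusted p = 0.00835, 0.0384 and 0.0411 for Selplg at 6632 bp, Slc2a5 and Sparc) and Selplg at 4651 bp did not (0.257). Depth limits weak regions most, since a region needs a pileup of 6 to 8 to be listed at all.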
